A study of Acomys cahirinus and Mus musculus with 10 samples.

Results

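The Cairo spiny mouse, *Acomys cahirinus*, closes a hole punched through the ear pinna and rebuilds the missing tissue, and the comparison described here sets its ear tissue 15 days after injury (D15, labelled regenerating) against uninjured ear tissue (D0). All components of the table that compares these groups were taken, 658670 of the 677966 components in the assembly of the species. A component is a group of assembled contigs that stands for a gene or a piece of one, since no genome was used for this species. By the study's account the tissue was a ring at the healing margin of a 4 mm punch in sexually mature females, with no drug or genetic change named in the sources used here, and 3 animals were taken at each time point. RNA was depleted of ribosomal RNA, and strand-specific libraries were sequenced as paired ends. The deposited table holds ratios between the groups and no value for an animal, so each level below is a group mean, in normalised counts per library, recovered from the 2 ratios of each row. There is no spread between animals to print beside a level. The strength of a difference is given by the authors' posterior probability of differential expression, which weighs the spread between libraries, and a component or gene is called higher or lower at a probability of at least 0.95.

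One feature of the D15 group comes before any result. Low means fall on steps that 1 read in 1 library makes, and the D0 means showed 3 such steps, at 0.2915, 0.3311 and 0.3718, as for 3 libraries. The D15 means showed only 2 steps, at 0.3737 and 0.6093, while the D10 and D20 groups showed 3 each. Steps were sought among frequent values within a limited range, and a value equal to a sum of smaller steps was not counted. A library left out at D15, a library entered more than once and a step missed by this search cannot be told apart. No result could be recomputed without a library. Every call at D15 uses the spread within this group, and how far the calls depend on this feature was not tested.

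Ear skin holds epidermis, hair follicles, sebaceous glands, dermis, fat, striated muscle, nerves and a plate of elastic cartilage. After a punch the epidermis covers the cut edge, inflammatory cells enter, and in regenerating tissue a mass of dividing mesenchymal cells, the blastema, gathers under the epidermis in a matrix rich in fibronectin and tenascin. Metalloproteinases remodel that matrix, and cross-linking enzymes stiffen it.

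Components were named by their best BLASTN match to *M. musculus* transcripts by bit score, and single matches of 99% identity or more were left out. This named 31362 components, which stand for 14823 genes, and a gene is represented below by its component with the highest bit score. The median identity of these matches was 91.1%, and 90% of them lay between 85.6% and 95.1%. The 7 components from which the study drew its spiny mouse qPCR primers all carried the expected gene name here and all represented that gene. The remaining components had no name. Of 7472 genes split over 2 or more components, 971 had 2 or more called, and 910 of these were called in 1 direction only. The other split genes could not be compared in this way.

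The coding sequence of a few genes shows what the names rest on and how far the species differ. Each pair below gives the spiny mouse contig first and the *M. musculus* transcript (GENCODE vM21, GRCm38) second, on the coding strand, 5′ to 3′, as the 90 bases within 1 coding exon that differ most, with bases that differ between the species in capitals. *Mmp13*, an interstitial collagenase, had the largest increase of the well expressed genes, and *Tnc*, tenascin C, is a matrix protein of wounds and blastemas. The stretch of *Mmp13* lies in exon 8 of the gene on chromosome 9 (positions 7280188 to 7280277, plus strand), and that of *Tnc* in exon 11 on chromosome 4 (63999944 to 64000033, minus strand).
*Mmp13*, A. cahirinus: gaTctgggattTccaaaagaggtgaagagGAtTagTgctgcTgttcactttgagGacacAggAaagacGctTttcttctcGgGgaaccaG
*Mmp13*, M. musculus: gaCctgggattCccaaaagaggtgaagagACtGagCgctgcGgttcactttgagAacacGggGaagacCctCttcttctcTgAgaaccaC
*Tnc*, A. cahirinus: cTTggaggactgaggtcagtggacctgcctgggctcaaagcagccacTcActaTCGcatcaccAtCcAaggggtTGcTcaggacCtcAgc
*Tnc*, M. musculus: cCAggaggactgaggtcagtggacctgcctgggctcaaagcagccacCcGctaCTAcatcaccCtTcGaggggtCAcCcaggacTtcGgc
In each of these stretches 15 bases differed, which changed 4 of 30 amino acids in *Mmp13* and 8 of 30 in *Tnc*, and the spiny mouse frame held 0 stop codons in either. *Pvalb*, the calcium buffer parvalbumin of fast muscle fibres, is shown because it stands for the muscle genes that fell. Its stretch lies in exon 2 on chromosome 15 (78202562 to 78202651, minus strand).
*Pvalb*, A. cahirinus: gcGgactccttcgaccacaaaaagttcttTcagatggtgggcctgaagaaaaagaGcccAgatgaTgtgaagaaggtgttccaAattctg
*Pvalb*, M. musculus: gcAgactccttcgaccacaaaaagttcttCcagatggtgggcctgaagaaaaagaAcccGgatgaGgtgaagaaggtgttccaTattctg
In *Pvalb* 6 of 90 bases differed. *Penk* encodes proenkephalin, the precursor of the enkephalins, short opioid peptides of 5 amino acids. A stretch of 180 bases in its exon 2 (chromosome 4, 4133848 to 4134027, minus strand) is shown with the codons of the enkephalins in capitals.
*Penk*, A. cahirinus: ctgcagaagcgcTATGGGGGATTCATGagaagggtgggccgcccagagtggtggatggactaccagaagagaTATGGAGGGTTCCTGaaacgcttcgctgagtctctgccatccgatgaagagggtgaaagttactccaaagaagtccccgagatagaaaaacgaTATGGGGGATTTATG
*Penk*, M. musculus: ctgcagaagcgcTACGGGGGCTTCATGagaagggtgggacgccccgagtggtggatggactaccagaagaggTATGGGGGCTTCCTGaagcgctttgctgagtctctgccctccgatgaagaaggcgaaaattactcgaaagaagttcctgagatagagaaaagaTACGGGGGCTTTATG
The stretch held 3 enkephalin copies in each species, and 20 of its bases but only 1 of its 60 amino acids differed.

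Of the 658670 components, 8767 were called higher at D15 (1.33%) and 7311 lower (1.11%). Among the 14823 named genes 2682 were called higher (18.1%) and 2109 lower (14.2%), and these shares are the background for the counts of each gene list below. The median log2 change of named genes with a mean of at least 10 was 0.04, on the posterior fold change of the table, where a positive value is higher at D15. Folds below are on the same scale, and where a mean is low they lie closer to 1 than the ratio of the printed means. Components called higher held 14.3% of all normalised counts at D0 and 28.4% at D15, and those called lower held 24.2% at D0 and 12.8% at D15. Where the mean of the higher group was at least 10, 903 genes were called higher by at least 1 on the log2 scale and 95 by at least 3, and 727 were called lower by at least 1 and 61 by at least 3. The groups are bulk tissue, so more cells of a type and more RNA per cell cannot be told apart in any of these values. The members of each list were chosen with earlier results of these data known, and no test of a list was made.

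**Figure D1:**
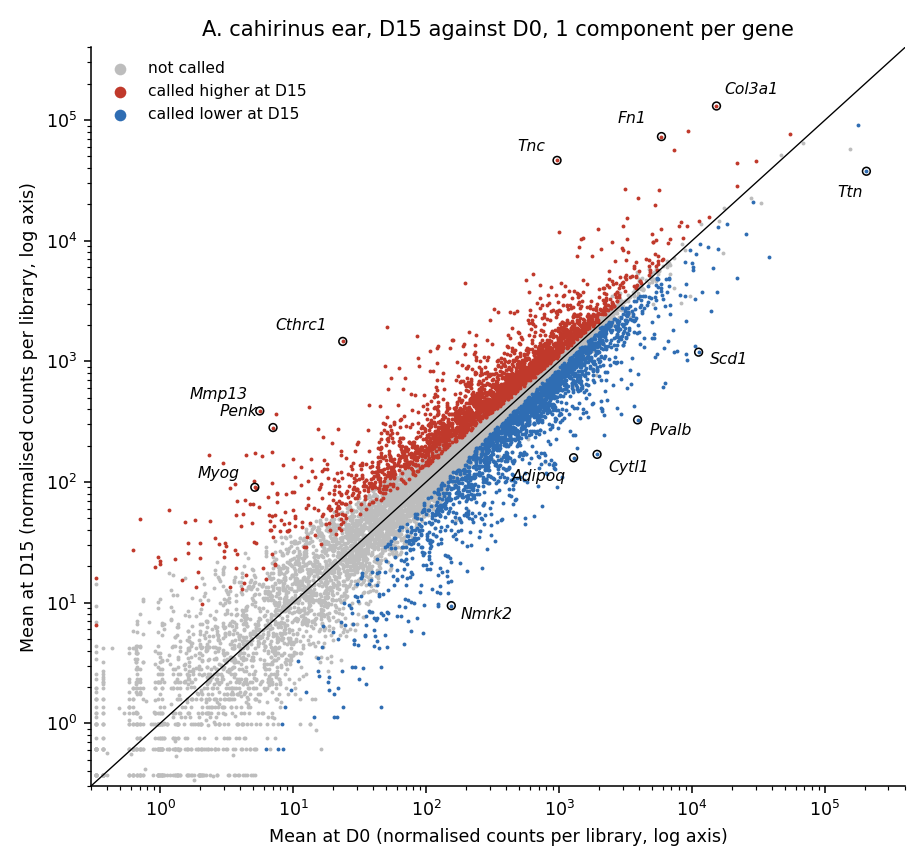
Each point is 1 gene, with its mean at D0 on the horizontal and at D15 on the vertical axis, both in normalised counts per library on a log scale, and the line marks equal means. Genes called higher at D15 (red) include *Tnc* and *Mmp13* far above the line, genes called lower (blue) include *Pvalb* and *Cytl1* below it, and 377 genes with a mean of 0.3 or less in a group are not drawn.

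The 12 well expressed genes with the largest increase, those with a mean of at least 100 in the higher group, were matrix genes, proteinases and a mixed set of others. *Mmp13* (5.61 at D0 and 387 at D15, log2 change 6.02) rose 65-fold, and *Cthrc1* (23.6 at D0 and 1461 at D15, log2 change 5.93), a secreted protein with a collagen triple helix repeat, rose 61-fold. *Tnc* (964 at D0 and 46262 at D15, log2 change 5.58) rose 48-fold. These 3 genes are matrix or matrix-cutting proteins. The minor collagen *Col26a1* (2.98 at D0 and 144 at D15, log2 change 5.43) and the proteinase *Adamts19* (5.78 at D0 and 164 at D15, log2 change 4.74) belong to the same kind. *Lrrc15* (4.44 at D0 and 169 at D15, log2 change 5.14), a leucine-rich repeat membrane protein known from matrix-producing fibroblasts, was called higher as well, and its log2 change was 3.03 with means summed over all its components.

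Other genes of that set have no shared role. The photoreceptor cadherin *Cdhr1* (2.33 at D0 and 166 at D15, log2 change 5.95) had a D0 mean of few reads. The opioid precursor *Penk* (7.05 at D0 and 282 at D15, log2 change 5.25), the interleukin 2 receptor chain *Il2ra* (5.18 at D0 and 174 at D15, log2 change 4.97) and the guanine nucleotide exchange factor *Plekhg4* (13.1 at D0 and 417 at D15, log2 change 4.95) belong to it with the embryonic myosin *Myh3*, which is described with the muscle genes. The match behind *Il2ra* covers 483 bases of a component whose longest contig has 2960.

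By the same limit of 100 on the higher mean, the 12 genes with the largest decrease were mostly genes of striated muscle. Muscle genes among them were the nicotinamide riboside kinase *Nmrk2* (154 at D0 and 9.42 at D15, log2 change -3.98), the muscle ribosomal protein *Rpl3l* (265 at D0 and 19.2 at D15, log2 change -3.76), the kinase *Mylk4* (649 at D0 and 52.4 at D15, log2 change -3.62), the cytochrome oxidase subunit *Cox6a2* (555 at D0 and 45 at D15, log2 change -3.61), the ADP-ribosyltransferase *Art5* (123 at D0 and 9.73 at D15, log2 change -3.61), the reductase *Dhrs7c* (145 at D0 and 12.1 at D15, log2 change -3.55) and *Pvalb* (3890.3 at D0 and 327 at D15, log2 change -3.57). *Pvalb* fell 11.9-fold. The corticotropin-releasing hormone receptor *Crhr2* (553 at D0 and 50.7 at D15, log2 change -3.44), the phosphatase inhibitor *Ppp1r1a* (203 at D0 and 18.3 at D15, log2 change -3.45) and the acyl-CoA synthetase *Acsl6* (123 at D0 and 9.32 at D15, log2 change -3.67) fell as far. *Myoc* (739 at D0 and 62.9 at D15, log2 change -3.55), myocilin, and *Cytl1* (1929 at D0 and 169 at D15, log2 change -3.51), a cytokine-like protein of cartilage, were the others.

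**Figure D2:**
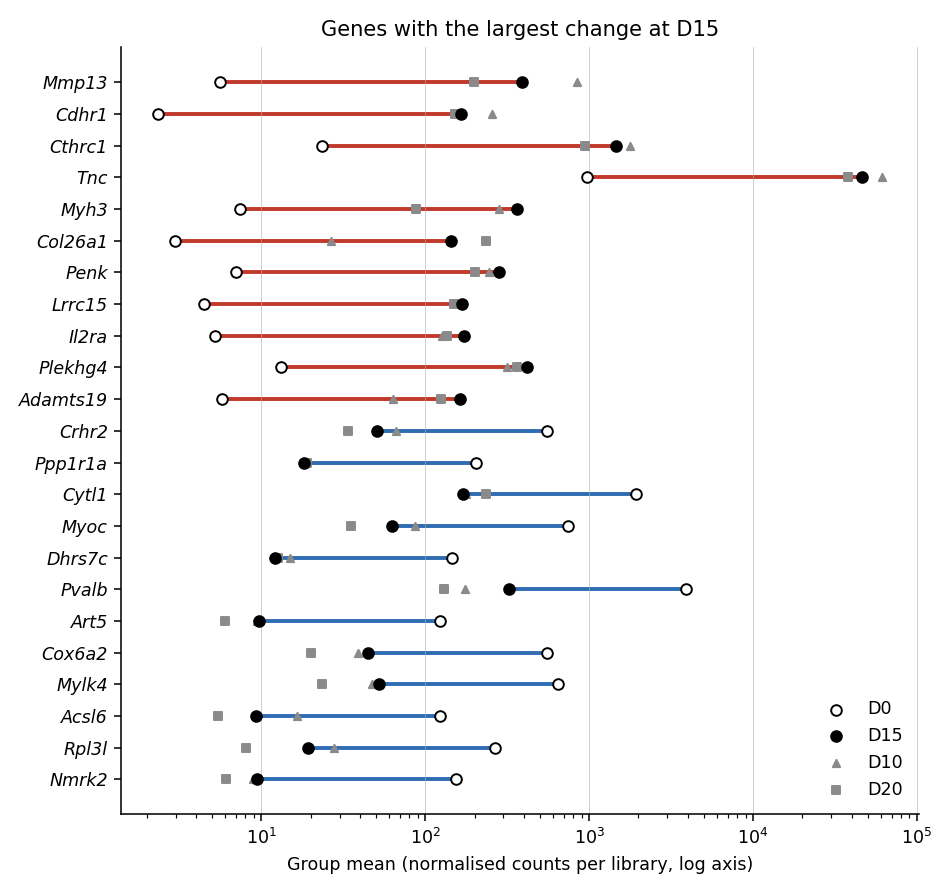
For 11 of the 12 genes called higher and the 12 called lower with the largest change among genes with a mean of at least 100, the group means at D0 (open circles) and D15 (filled circles) are joined by a line, and D10 (triangles) and D20 (squares) are beside them, in normalised counts per library on a log axis. *Mmp13* stands at 5.61 at D0 and 387 at D15, and *Pvalb* at 3890.3 and 327.

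Fibrillar collagens, which form the load-bearing fibres of dermis and cartilage, were called higher in 9 of 11 measured genes and lower in 0, with a median log2 change of 2.22. The chains of type I and III collagen rose alike: *Col1a1* (7286 at D0 and 56589 at D15, log2 change 2.96), *Col1a2* (9383 at D0 and 80772 at D15, log2 change 3.11) and *Col3a1* (15259 at D0 and 130614 at D15, log2 change 3.10). *Col1a1* stood 7.77-fold higher and *Col3a1* 8.56-fold. *Col5a1* (3128 at D0 and 26798 at D15, log2 change 3.10), which starts fibre assembly, and the cartilage collagen *Col2a1* (677 at D0 and 3041 at D15, log2 change 2.17) rose too. The components of *Col1a1*, *Col1a2* and *Col3a1* also contain stretches with a match of 99% or more. A second component of *Col3a1* without such a match moved from 3368.8 to 24273, a log2 change of 2.85. Among genes named below, the components of *Col6a3*, *Podn*, *Itga5*, *Itgb1*, *Nrg1*, *Krt10*, *Krt15*, *Aldoa* and *Rora* hold such a match too.

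Other collagens were called higher in 17 and lower in 5 of 32, with a median of 0.98. The microfibrillar chains *Col6a1* (1453 at D0 and 10345 at D15, log2 change 2.83) and *Col6a3* (5602 at D0 and 26501 at D15, log2 change 2.24) and the anchoring fibril collagen *Col7a1* (589 at D0 and 3744 at D15, log2 change 2.67) rose with *Col26a1*. Those that fell included the basement membrane chains *Col4a3* (130.0 at D0 and 33.7 at D15, log2 change -1.93) and *Col4a4* (204 at D0 and 72.2 at D15, log2 change -1.49) and the minor *Col20a1* (30.3 at D0 and 11.1 at D15, log2 change -1.42), which was not called in its component with the highest mean. The hemidesmosomal *Col17a1* (6689 at D0 and 4181 at D15, log2 change -0.68) was also lower.

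Enzymes and chaperones that fold and cross-link collagen were called higher in 19 of 26 and lower in 3, with a median of 1.02. The prolyl hydroxylase subunit *P4ha3* (48.7 at D0 and 909 at D15, log2 change 4.21) rose 18.5-fold. The collagen chaperones *Serpinh1* (1027 at D0 and 4466 at D15, log2 change 2.12) and *Fkbp10* (444 at D0 and 1882 at D15, log2 change 2.08) rose about as much as each other. The lysyl oxidase *Loxl4* (5199.6 at D0 and 1552 at D15, log2 change -1.74), the procollagen enhancer *Pcolce2* (899 at D0 and 391 at D15, log2 change -1.20) and the prolyl hydroxylase *P3h2* (779 at D0 and 445 at D15, log2 change -0.81) were the 3 members called lower.

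In the provisional and matricellular matrix, the temporary scaffold of a wound, 16 of 26 genes were called higher and 1 lower, with a median of 0.76. Fibronectin, *Fn1* (5883 at D0 and 72878 at D15, log2 change 3.63), rose 12.4-fold. Its 4 smaller components with a mean of at least 100 had log2 changes of 3.37, 3.43, 3.77 and 4.46, all in the direction of the largest component, which also holds a match of 99% or more. Periostin, *Postn* (54197 at D0 and 77106 at D15, log2 change 0.51), was already abundant at D0 and was called higher by a small amount. Thrombospondin 1, *Thbs1* (8989 at D0 and 4393 at D15, log2 change -1.03), was the 1 member called lower.

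Microfibril and elastic fibre genes were called higher in 11 and lower in 2 of 15. *Emilin1* (158 at D0 and 1511 at D15, log2 change 3.25), an elastin-binding glycoprotein, rose most, followed by fibulin 2, *Fbln2* (1963 at D0 and 12578 at D15, log2 change 2.68), and the fibrillin of developing tissue, *Fbn2* (724 at D0 and 4286 at D15, log2 change 2.56). The adult fibrillin *Fbn1* (5042 at D0 and 9679.9 at D15, log2 change 0.94) rose less. The TGF-beta binding protein *Ltbp4* (2696 at D0 and 969.5 at D15, log2 change -1.47) and *Efemp1* (885 at D0 and 729 at D15, log2 change -0.28) were called lower. With means summed over all its components *Ltbp4* had a log2 change of -0.87.

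Small leucine-rich proteoglycans, which coat collagen fibrils, went both ways, with 4 called higher and 5 lower of 13. Lumican, *Lum* (1505 at D0 and 10450.1 at D15, log2 change 2.80), biglycan, *Bgn* (2513 at D0 and 9705 at D15, log2 change 1.95), and podocan, *Podn* (300.5 at D0 and 540.0 at D15, log2 change 0.84), were higher. Chondroadherin, *Chad* (251 at D0 and 55.3 at D15, log2 change -2.17), epiphycan, *Epyc* (237 at D0 and 67.7 at D15, log2 change -1.80), and osteomodulin, *Omd* (70.3 at D0 and 32.6 at D15, log2 change -1.10), which are known from cartilage and bone, were lower. Decorin, *Dcn* (15771 at D0 and 13075 at D15, log2 change -0.27), was called lower by a small amount, and its component also holds a match of 99% or more.

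Among laminins and other basement membrane genes 7 of 18 were called higher and 4 lower, with a median of 0.18. Perlecan, *Hspg2* (2083 at D0 and 8506 at D15, log2 change 2.03), and nidogen 2, *Nid2* (564 at D0 and 1244 at D15, log2 change 1.14), were higher. The laminin chain of muscle and nerve, *Lama2* (4230.3 at D0 and 2626 at D15, log2 change -0.69), *Lamc3* (258 at D0 and 136 at D15, log2 change -0.92) and *Frem2* (1042 at D0 and 672 at D15, log2 change -0.63) were lower.

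Metalloproteinases, which cut matrix proteins, were called higher in 19 of 28 and lower in 1, with a median of 1.43. Beside *Mmp13*, the stromal proteinase *Mmp11* (196 at D0 and 4458 at D15, log2 change 4.50) rose 22.7-fold and the gelatinase *Mmp9* (36.9 at D0 and 434 at D15, log2 change 3.54) 11.6-fold. The other gelatinase, *Mmp2* (3317 at D0 and 8072 at D15, log2 change 1.28), rose 2.43-fold. The epidermal proteinase *Mmp28* (175 at D0 and 68.4 at D15, log2 change -1.35) was the 1 member called lower.

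Inhibitors of these enzymes and genes of the plasminogen system were called higher in 6 and lower in 3 of 11. The broad inhibitor *A2m* (163 at D0 and 537 at D15, log2 change 1.71), tissue plasminogen activator, *Plat* (408 at D0 and 1332 at D15, log2 change 1.71), and the metalloproteinase inhibitor *Timp2* (3628 at D0 and 6220.3 at D15, log2 change 0.78) were higher. *Timp3* (3385 at D0 and 850.4 at D15, log2 change -1.99) and *Timp4* (81.5 at D0 and 32.7 at D15, log2 change -1.31), of the same inhibitor family, and the serpin *Serpinb2* (1256 at D0 and 666 at D15, log2 change -0.91) were lower. *Timp3* and *Timp2* thus moved in opposite directions.

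Integrins, the cell's receptors for matrix, were called higher in 10 and lower in 4 of 18. The fibronectin receptor chains *Itga5* (233 at D0 and 1358 at D15, log2 change 2.54) and *Itgb1* (2643 at D0 and 6814 at D15, log2 change 1.37) were higher. The epithelial chains *Itgb6* (319 at D0 and 192 at D15, log2 change -0.73) and *Itga2* (235 at D0 and 156 at D15, log2 change -0.59) and the chain *Itgb8* (321 at D0 and 183 at D15, log2 change -0.81) were lower.

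**Figure D3:**
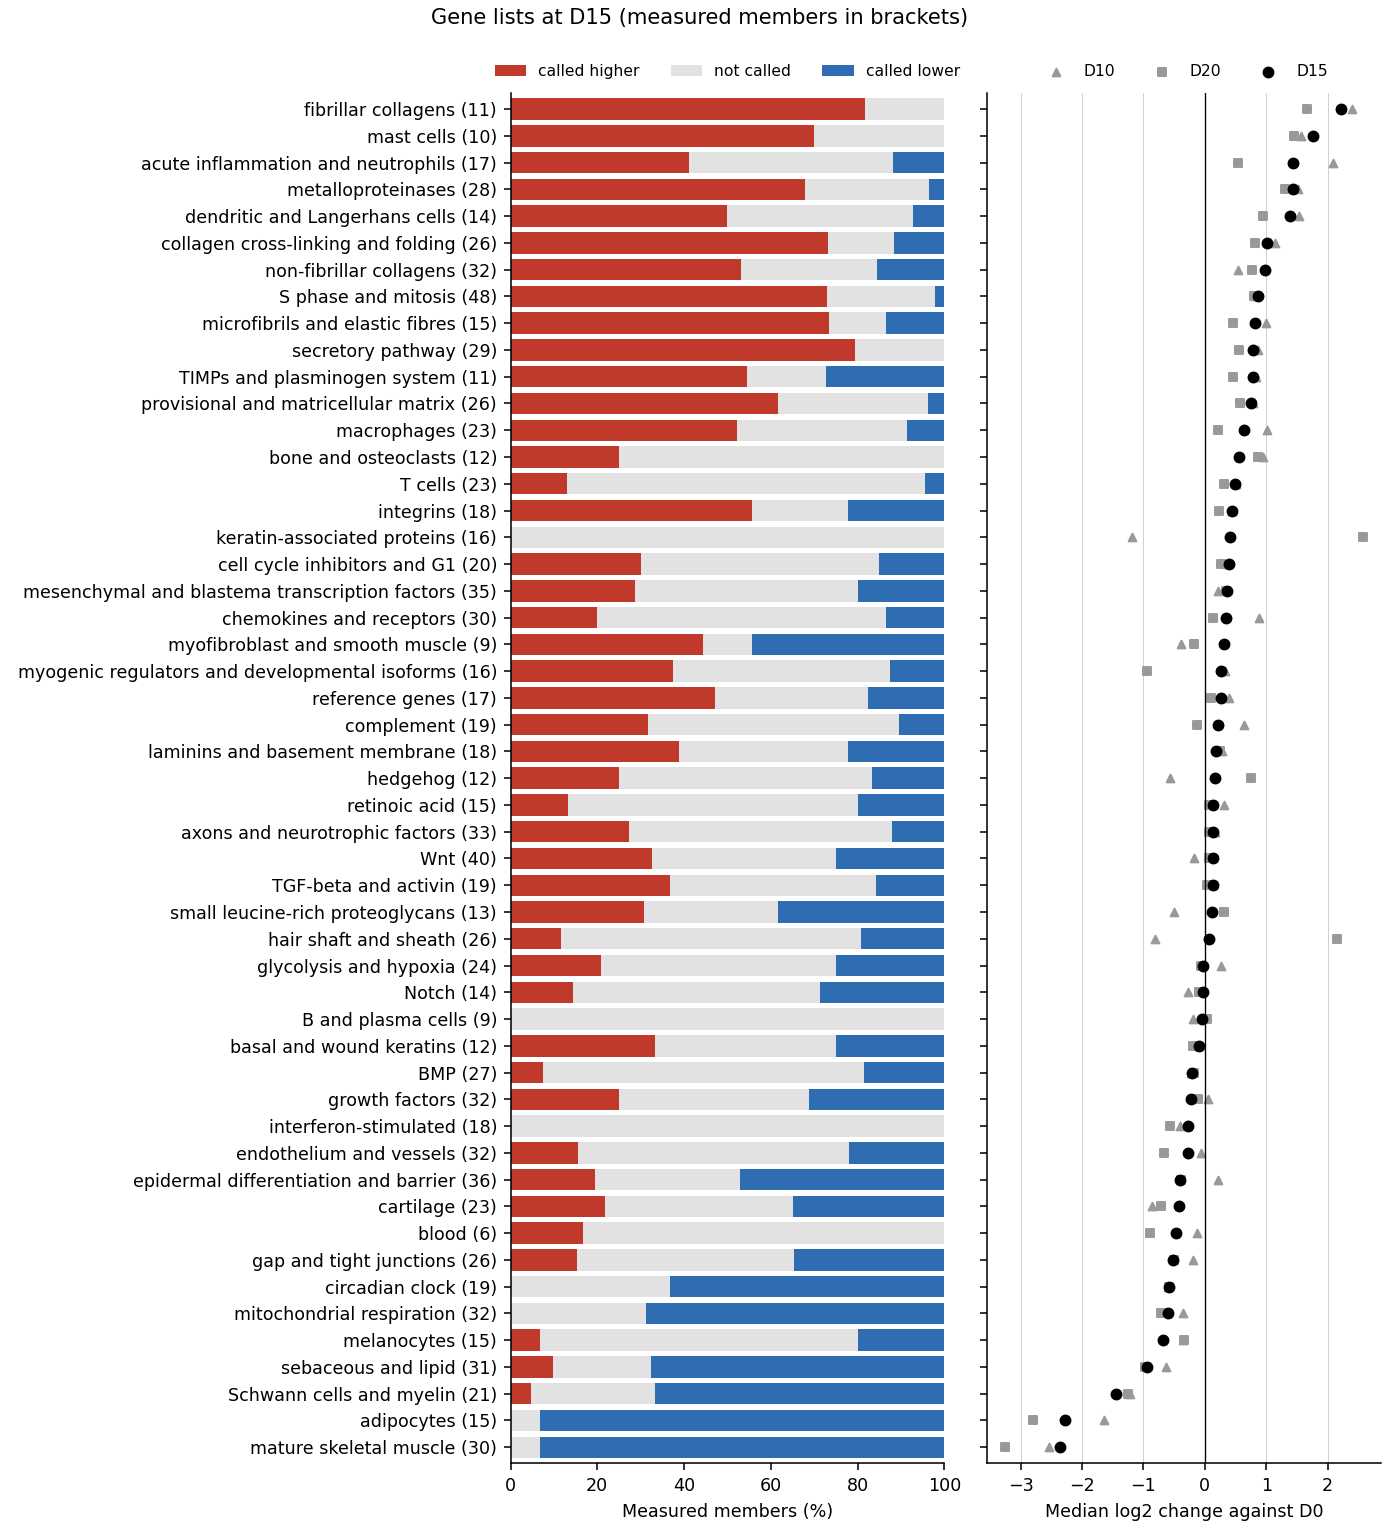
Left, the percentage of measured members of each of 51 gene lists that were called higher (red), not called (grey) or called lower (blue) at D15. Right, the median log2 change of each list against D0 at D15 (circles), D10 (triangles) and D20 (squares). Fibrillar collagens have a D15 median of 2.22 and mature skeletal muscle one of -2.36.

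Signalling pathways follow. Members were called in both directions, which holds for named genes as a whole too (18.1% higher and 14.2% lower) and is not particular to these lists. In the TGF-beta and activin list 7 of 19 genes were called higher and 3 lower. The ligand *Tgfb3* (483 at D0 and 2614 at D15, log2 change 2.43), the secreted *Fstl1* (3001 at D0 and 13184 at D15, log2 change 2.14) and the TGF-beta induced matrix protein *Tgfbi* (2962 at D0 and 8638 at D15, log2 change 1.54) were higher. The receptors *Acvr2b* (58.1 at D0 and 28.4 at D15, log2 change -1.02), *Acvr2a* (732 at D0 and 467 at D15, log2 change -0.65) and *Tgfbr3* (1367 at D0 and 1121 at D15, log2 change -0.29) were lower.

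In the BMP list 2 of 27 genes were called higher and 5 lower. The target *Id3* (344 at D0 and 597 at D15, log2 change 0.80) was among the higher ones. The ligands *Gdf10* (101 at D0 and 33.8 at D15, log2 change -1.57) and *Bmp3* (97.4 at D0 and 46.1 at D15, log2 change -1.07), the target *Id4* (912 at D0 and 433 at D15, log2 change -1.07) and the receptor *Bmpr2* (2116 at D0 and 1879 at D15, log2 change -0.17) were lower, the last by a small amount.

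Of 40 Wnt genes 13 were called higher and 10 lower. The ligands *Wnt5b* (22.9 at D0 and 180.4 at D15, log2 change 2.96) and *Wnt2b* (6.59 at D0 and 53.6 at D15, log2 change 2.96), the receptor *Fzd7* (1355 at D0 and 2416 at D15, log2 change 0.83) and the secreted Wnt-binding *Sfrp2* (238 at D0 and 1641 at D15, log2 change 2.79) were higher. The inhibitors *Sfrp5* (34.6 at D0 and 5.32 at D15, log2 change -2.62), *Frzb* (449 at D0 and 103 at D15, log2 change -2.12), *Notum* (71.7 at D0 and 20.7 at D15, log2 change -1.78) and *Wif1* (1994 at D0 and 755 at D15, log2 change -1.40) were lower. *Sfrp2* belongs to the same family of secreted Wnt inhibitors as *Sfrp5*, so inhibitors were found on both sides.

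In the hedgehog list 3 of 12 genes were called higher and 2 lower. The signal transducer *Smo* (253 at D0 and 447 at D15, log2 change 0.82) and the transcription factors *Gli3* (389 at D0 and 999 at D15, log2 change 1.36) and *Gli2* (312 at D0 and 399 at D15, log2 change 0.35) were higher, and the co-receptors *Cdon* (2088 at D0 and 1497 at D15, log2 change -0.48) and *Boc* (1464 at D0 and 1204 at D15, log2 change -0.28) were lower. The component of *Smo* also holds a match of 99% or more, and without such components the log2 change of *Smo* was 0.11 and not called. In the Notch list 2 of 14 were higher, the ligand *Dll1* (192 at D0 and 318 at D15, log2 change 0.73) and the receptor *Notch3* (1197 at D0 and 1638 at D15, log2 change 0.45), and 4 were lower, among them the target *Hes1* (439.6 at D0 and 315 at D15, log2 change -0.48) and the feedback regulator *Nrarp* (592 at D0 and 498 at D15, log2 change -0.25). Of 15 retinoic acid genes, 2 were higher, among them the binding protein *Crabp1* (166 at D0 and 698 at D15, log2 change 2.07), and 3 were lower, the reductase *Dhrs3* (597 at D0 and 400.4 at D15, log2 change -0.57), the retinoic acid hydroxylase *Cyp26b1* (1288 at D0 and 877 at D15, log2 change -0.55) and the receptor *Rarg* (819 at D0 and 635 at D15, log2 change -0.37).

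Growth factor genes were called higher in 8 and lower in 10 of 32. Neuregulin 1, *Nrg1* (88.5 at D0 and 911 at D15, log2 change 3.36), rose 10.3-fold. The heparin-binding pair pleiotrophin, *Ptn* (193 at D0 and 1381 at D15, log2 change 2.84), and midkine, *Mdk* (44.5 at D0 and 214 at D15, log2 change 2.25), rose together. *Egf* (139.6 at D0 and 40.1 at D15, log2 change -1.79), betacellulin, *Btc* (294 at D0 and 97.3 at D15, log2 change -1.59), and *Fgf2* (290.5 at D0 and 143 at D15, log2 change -1.02) were lower. The 2 ErbB1 ligands named here, *Egf* and *Btc*, and the ErbB3 ligand *Nrg1* thus moved in opposite directions.

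Of 35 transcription factors of mesenchyme and blastema, 10 were called higher and 7 lower, with a median of 0.36. *Sox11* (49.1 at D0 and 303 at D15, log2 change 2.62), a factor of immature cells, and the runt factors *Runx1* (744 at D0 and 2907 at D15, log2 change 1.97) and *Runx2* (27.4 at D0 and 114 at D15, log2 change 2.04) were higher. The forkhead factors *Foxc1* (378 at D0 and 129.6 at D15, log2 change -1.54) and *Foxc2* (15.4 at D0 and 3.46 at D15, log2 change -2.04) and the cartilage and follicle factor *Sox9* (334 at D0 and 142 at D15, log2 change -1.24) were lower, though *Sox9* was not called in its component with the highest mean, where the log2 change was -0.43. When means were summed over all components of a gene, *Sox11* had a log2 change of 1.17.

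Genes of S phase and mitosis were called higher in 35 of 48 and lower in 1, with a median log2 change of 0.87. Cyclin E1, *Ccne1* (18.2 at D0 and 108 at D15, log2 change 2.54), which drives entry into S phase, rose most, followed by survivin, *Birc5* (32.5 at D0 and 127 at D15, log2 change 1.95), and *E2f8* (29.9 at D0 and 114 at D15, log2 change 1.92). The proliferation antigen *Mki67* (1446 at D0 and 2484 at D15, log2 change 0.78) was called higher by a smaller amount. The spindle factor *Tpx2* (2249 at D0 and 1709 at D15, log2 change -0.40) was the 1 member called lower. Over all components of the gene *Birc5* had a log2 change of 0.16.

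Inhibitors of the cell cycle and G1 regulators were called higher in 6 and lower in 3 of 20. The inhibitor *Cdkn1c* (118 at D0 and 610.0 at D15, log2 change 2.36), p57, rose 5.14-fold, and *Cdkn2b* (67.9 at D0 and 139.5 at D15, log2 change 1.03), p15, and cyclin D3, *Ccnd3* (507 at D0 and 846 at D15, log2 change 0.74), were higher. The retinoblastoma gene *Rb1* (1088 at D0 and 590.3 at D15, log2 change -0.88), the inhibitor *Cdkn1b* (704 at D0 and 528 at D15, log2 change -0.42), p27, and cyclin D2, *Ccnd2* (1776 at D0 and 1348 at D15, log2 change -0.40), were lower. Members that hold cells back were thus found on both sides.

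The epidermis was measured through keratins, barrier genes and junctions. *Krt5*, the partner of *Krt14* in basal cells, and *Krt1* had no component of that name under the identity rule. Of 12 basal and wound keratin genes, 4 were called higher and 3 lower. The cornified envelope precursor *Sprr1b* (15.4 at D0 and 274 at D15, log2 change 4.12) and the wound keratins *Krt16* (594 at D0 and 1662 at D15, log2 change 1.49) and *Krt6a* (30414 at D0 and 45607 at D15, log2 change 0.58) were higher, and the basal keratin *Krt15* (10049 at D0 and 6486 at D15, log2 change -0.63) and the basal transcription factor *Trp63* (761 at D0 and 474 at D15, log2 change -0.68) were lower. The component of *Krt6a* also holds a match of 99% or more, and without such components another one stood for *Krt6a*, with a log2 change of 0.78 that was not called. The component named *Krt17* rests on a match of 67 bases and had means of 16.8 and 6.37. The name *Krt16* rests on a match of 239 bases at 98.3% identity, just under the limit of 99%, so it is less certain than most.

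Epidermal differentiation and barrier genes were called lower in 17 of 36 and higher in 7, with a median of -0.41. Repetin, *Rptn* (51.1 at D0 and 348 at D15, log2 change 2.76), transglutaminase 3, *Tgm3* (56.9 at D0 and 301 at D15, log2 change 2.40), and the protease *Casp14* (1295 at D0 and 3804 at D15, log2 change 1.55) were higher. The keratins *Krt2* (7175 at D0 and 1817 at D15, log2 change -1.98) and *Krt80* (3056 at D0 and 1432 at D15, log2 change -1.09) and the transcription factor *Grhl3* (482 at D0 and 270.5 at D15, log2 change -0.83) were lower. The suprabasal keratin *Krt10* stood at 17343 at D0 and 18563 at D15 and was not called. Components named *Flg* and *Flg2* that do not represent these genes here had higher D15 means than *Krt10*. The one named *Flg* was called higher (16446 at D0 and 52238 at D15, log2 change 1.67). The one named *Flg2* was called lower (39304 at D0 and 25003 at D15, log2 change -0.65). With means summed over components *Tgm3* had a log2 change of 0.55.

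Gap and tight junction genes were called higher in 4 and lower in 9 of 26, with a median of -0.52. The gap junction genes *Gjb6* (27.8 at D0 and 128 at D15, log2 change 2.19), *Gjb2* (179 at D0 and 674 at D15, log2 change 1.91), *Gjc1* (179 at D0 and 317 at D15, log2 change 0.83) and *Gja1* (3646 at D0 and 5907 at D15, log2 change 0.70) were all higher. The tight junction genes *Cldn8* (71.5 at D0 and 16.1 at D15, log2 change -2.13), *Cldn4* (502 at D0 and 236 at D15, log2 change -1.09) and *Ocln* (642 at D0 and 344 at D15, log2 change -0.90) were lower.

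Genes of the hair shaft and its sheath were called higher in 3 and lower in 5 of 26. The inner root sheath genes *Krt25* (121 at D0 and 511 at D15, log2 change 2.07), *Krt73* (8.07 at D0 and 48.5 at D15, log2 change 2.54) and trichohyalin, *Tchh* (108 at D0 and 471 at D15, log2 change 2.12), were higher. The D10 means of *Krt25* and *Tchh* were 53 and 44.1, which were not called different from D0, and their D20 means were 2116 and 1728. The shaft keratin *Krt35* (99.2 at D0 and 54.2 at D15, log2 change -0.87) and the sebaceous duct keratin *Krt79* (275 at D0 and 134 at D15, log2 change -1.03) were lower. The main component named for the sheath keratin *Krt71* (8879 at D0 and 3486 at D15, log2 change -1.35) was lower and is counted among the 5. Its D0 mean is far above those of *Krt25*, *Tchh* and *Krt73*. It fell as the epidermal keratin *Krt2* did (7175 at D0 and 1817 at D15), so its name is not certain. The 2 smaller components named *Krt71* rose, from 19.9 to 123 and from 14.9 to 103, so the direction of *Krt71* is not settled. Of 16 keratin-associated proteins, the filler proteins of the hair shaft, 0 were called in either direction and 6 had a mean of at least 10.

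Sebaceous gland and lipid synthesis genes were called lower in 21 of 31 and higher in 3, with a median of -0.94. The desaturase *Scd1* (11196 at D0 and 1189.8 at D15, log2 change -3.23), the lipogenic regulator *Thrsp* (139 at D0 and 24.6 at D15, log2 change -2.48), the wax synthase *Awat2* (568 at D0 and 171 at D15, log2 change -1.73) and fatty acid synthase, *Fasn* (15689 at D0 and 8509.7 at D15, log2 change -0.88), were lower. The match that names *Scd1* covers 135 bases of a contig of 2273. The desaturases *Fads2* (107 at D0 and 308 at D15, log2 change 1.52) and *Fads1* (359 at D0 and 833 at D15, log2 change 1.21) were among the higher ones.

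Melanocyte genes were called lower in 3 and higher in 1 of 15. The pigment enzymes *Tyr* (65.2 at D0 and 29 at D15, log2 change -1.16) and *Dct* (334 at D0 and 187 at D15, log2 change -0.84) and the channel *Trpm1* (70.3 at D0 and 25.8 at D15, log2 change -1.43) were lower. The 1 higher gene was the receptor *Kit* (330.2 at D0 and 429 at D15, log2 change 0.38), which mast cells carry as well.

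The lowest median of the 51 lists was that of mature skeletal muscle, the striated muscle of the ear base and pinna. Of 30 measured genes 28 were called lower and 0 higher, with a median log2 change of -2.36. Beside *Pvalb*, fast troponin I, *Tnni2* (6071 at D0 and 613 at D15, log2 change -3.31), fell 9.89-fold and the sarcomere protein *Myoz1* (1050.0 at D0 and 109 at D15, log2 change -3.27) 9.62-fold. Titin, *Ttn* (204664 at D0 and 37601 at D15, log2 change -2.44), the giant spring of the sarcomere, fell 5.44-fold. Its 3 other components with a mean of at least 100 had log2 changes of -1.58, -2.32 and -2.56. The summed mean of the list was 348029.4 at D0 and 66517.3 at D15.

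Genes of muscle formation include members called higher. Of 16 myogenic regulators and developmental isoforms 6 were called higher and 2 lower. Myogenin, *Myog* (5.14 at D0 and 90.3 at D15, log2 change 4.04), which drives myoblast differentiation, rose 16.5-fold, and the embryonic light chain *Myl4* (0.914 at D0 and 19.8 at D15, log2 change 3.98) rose from a D0 mean of about 1 normalised count. The embryonic heavy chain *Myh3* (7.38 at D0 and 364 at D15, log2 change 5.56) rose in the component with the best match, which is a fragment of 716 bases. In the *Myh3* component with the highest mean the log2 change was -0.76, and over all its components -0.11, so its direction is not settled. Desmin, *Des* (3995 at D0 and 1757 at D15, log2 change -1.18), and the factor *Mef2c* (1464 at D0 and 648 at D15, log2 change -1.18) were lower.

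Smooth muscle and myofibroblast genes were called higher in 4 and lower in 4 of 9, and *Acta2* had no component of that name. Calponin, *Cnn1* (11.7 at D0 and 42.7 at D15, log2 change 1.84), transgelin, *Tagln* (426 at D0 and 1118 at D15, log2 change 1.39), and smoothelin, *Smtn* (309.5 at D0 and 571 at D15, log2 change 0.88), were higher. *Lmod1* (129.9 at D0 and 31.2 at D15, log2 change -2.05), *Synpo2* (909 at D0 and 500.3 at D15, log2 change -0.86) and *Tpm2* (4329.5 at D0 and 1569.7 at D15, log2 change -1.46) were lower, of which *Tpm2* is also a gene of striated muscle.

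Fat genes were nearly all lower. Of 15 measured adipocyte genes 14 were called lower and 0 higher, with a median of -2.28. Leptin, *Lep* (95.6 at D0 and 9.54 at D15, log2 change -3.28), adiponectin, *Adipoq* (1284 at D0 and 159 at D15, log2 change -3.01), the insulin-regulated glucose carrier *Slc2a4* (449 at D0 and 65.6 at D15, log2 change -2.77) and the fatty acid binding protein *Fabp4* (5250.4 at D0 and 1082 at D15, log2 change -2.28) were all lower. Adiponectin fell 8.08-fold. *Slc2a4* is also a muscle gene.

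Cartilage genes were called lower in 8 and higher in 5 of 23, with a median of -0.42. *Cytl1*, the small cartilage proteoglycan-associated *Snorc* (308 at D0 and 43.9 at D15, log2 change -2.80) and *Mia* (174 at D0 and 39.3 at D15, log2 change -2.14) were lower. Lubricin, *Prg4* (36.7 at D0 and 270.5 at D15, log2 change 2.87), type II collagen and *Chil1* (605 at D0 and 2672 at D15, log2 change 2.14) were higher. Aggrecan, the main cartilage proteoglycan, stood at 5055 at D0 and 2978 at D15 and was not called, with a posterior probability of 0.76. Of 12 bone and osteoclast genes 3 were called higher and 0 lower, namely alkaline phosphatase, *Alpl* (39.4 at D0 and 147 at D15, log2 change 1.89), cathepsin K, *Ctsk* (523 at D0 and 1516 at D15, log2 change 1.54), and *Acp5* (379 at D0 and 536 at D15, log2 change 0.50).

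Schwann cell and myelin genes were called lower in 14 and higher in 1 of 21, with a median of -1.45. The myelin protein *Mal* (35.5 at D0 and 2.1 at D15, log2 change -3.86) and *S100b* (931 at D0 and 142 at D15, log2 change -2.71) were lower. The 1 higher gene was *Ncam1* (460.0 at D0 and 1170.1 at D15, log2 change 1.35), an adhesion molecule of immature and non-myelinating Schwann cells that other cells carry as well. *S100b* is also expressed by cartilage and fat.

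Genes of axons and neurotrophic factors were called higher in 9 and lower in 4 of 33. The neurofilament gene *Nefm* (1.17 at D0 and 58 at D15, log2 change 5.25) rose 38.1-fold on the posterior ratio, from a D0 mean of about 1. Its rise stands beside that of *Penk*, of *Lgi2* (3.65 at D0 and 95.2 at D15, log2 change 4.58) and of the guidance receptor *Robo1* (743 at D0 and 2286 at D15, log2 change 1.62). The neurotrophin receptor *Ntrk2* (626 at D0 and 262 at D15, log2 change -1.26), *Sema3c* (1083 at D0 and 688 at D15, log2 change -0.65) and *Gfra3* (174 at D0 and 124 at D15, log2 change -0.48) were lower. The cells in which these genes were expressed were not measured.

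Immune cells were measured through marker lists. Mast cell genes were called higher in 7 of 10 and lower in 0, with a median of 1.77. The tryptases *Tpsab1* (10.03 at D0 and 156 at D15, log2 change 3.91) and *Tpsb2* (134 at D0 and 795 at D15, log2 change 2.57) and the chymase *Mcpt4* (561 at D0 and 4702 at D15, log2 change 3.07) were higher, the last 8.38-fold. Dendritic and Langerhans cell genes were called higher in 7 and lower in 1 of 14, with a median of 1.39. The class II genes *H2-Aa* (425 at D0 and 1573 at D15, log2 change 1.89) and *H2-Ab1* (839.6 at D0 and 3056 at D15, log2 change 1.86), their chaperone *Cd74* (1065 at D0 and 3444 at D15, log2 change 1.69) and *Cd209a* (250.1 at D0 and 904 at D15, log2 change 1.85) were higher. *Epcam* (1191 at D0 and 755 at D15, log2 change -0.66), which keratinocytes of the follicle also carry, was the 1 lower gene.

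Macrophage genes were called higher in 12 and lower in 2 of 23, with a median of 0.64. The F4/80 gene *Adgre1* (7.13 at D0 and 43.4 at D15, log2 change 2.55), *Ms4a7* (51.1 at D0 and 259 at D15, log2 change 2.33) and the lipid receptor *Trem2* (23.1 at D0 and 107 at D15, log2 change 2.19) were higher, and the lysozyme gene *Lyz2* (2960.5 at D0 and 4470.2 at D15, log2 change 0.59) rose by less. The efferocytosis receptor *Mertk* (529 at D0 and 377 at D15, log2 change -0.49) and *Lpcat2* (615 at D0 and 444 at D15, log2 change -0.47) were lower. The D5, D10 and D20 medians of this list were 1.74, 1.01 and 0.21.

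Acute inflammation and neutrophil genes were called higher in 7 and lower in 2 of 17. Their median was 1.44 over all measured members and 0.77 over the 13 with a mean of at least 10. Pentraxin 3, *Ptx3* (45 at D0 and 426 at D15, log2 change 3.23), interleukin 1 beta, *Il1b* (4.93 at D0 and 45.6 at D15, log2 change 3.12), interleukin 6, *Il6* (10.3 at D0 and 50.3 at D15, log2 change 2.25), and the alarmin *Il33* (259 at D0 and 871 at D15, log2 change 1.75) were higher. The antimicrobial peptide *Camp* (43.8 at D0 and 4.21 at D15, log2 change -3.27) of neutrophil granules and the decoy receptor *Il1r2* (936 at D0 and 317 at D15, log2 change -1.56) were lower. The mean of *Il1b* was 6044 at D5, 239 at D10 and 44.3 at D20.

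Chemokine genes were called higher in 6 and lower in 4 of 30. The monocyte attractants *Ccl7* (46.1 at D0 and 256 at D15, log2 change 2.46) and *Ccl2* (25.7 at D0 and 117 at D15, log2 change 2.17) and the neutrophil attractant *Cxcl5* (11.6 at D0 and 46.4 at D15, log2 change 1.96) were higher. *Ccl20* (47.4 at D0 and 11.8 at D15, log2 change -1.97), *Cxcl12* (434 at D0 and 216 at D15, log2 change -1.01) and *Ccl19* (187 at D0 and 106 at D15, log2 change -0.82) were lower.

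Of 23 T cell genes 3 were called higher, *Il2ra*, *Icos* (6.91 at D0 and 25.2 at D15, log2 change 1.81) and *Lat* (22 at D0 and 60.4 at D15, log2 change 1.44), and 1 lower, *Gata3* (1011 at D0 and 651 at D15, log2 change -0.64), which epidermis and follicle also express. Of 9 B and plasma cell genes 0 were called and 2 had a mean of at least 10. None of 18 interferon-stimulated genes was called, with a median of -0.28, and *Mx2* stood at 778 and 647.

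Complement genes were called higher in 6 and lower in 2 of 19, with *C4b* (907 at D0 and 2647 at D15, log2 change 1.55), *C3ar1* (33.6 at D0 and 92.6 at D15, log2 change 1.45) and *C1s1* (968 at D0 and 2622 at D15, log2 change 1.44) higher, and *Masp1* (419 at D0 and 131 at D15, log2 change -1.67) and the fat-derived factor D gene *Cfd* (1204 at D0 and 511 at D15, log2 change -1.24) lower. Endothelial and vessel genes were called higher in 5 and lower in 7 of 32. Podoplanin, *Pdpn* (121 at D0 and 972 at D15, log2 change 3.00), which fibroblasts and keratinocytes also express, the vessel growth ligand *Apln* (61.6 at D0 and 168 at D15, log2 change 1.44) and the pericyte receptor *Pdgfrb* (2367 at D0 and 4770.4 at D15, log2 change 1.01) were higher. The lymphatic genes *Lyve1* (233 at D0 and 95.3 at D15, log2 change -1.29) and *Mmrn1* (403 at D0 and 151 at D15, log2 change -1.41) and the VEGF receptor *Flt1* (274 at D0 and 146 at D15, log2 change -0.90) were lower. Among 6 blood genes only the platelet factor *Pf4* (200.1 at D0 and 259 at D15, log2 change 0.37) was called higher, and the globin *Hbb-bs*, a sign of red blood cells in the sample, stood at 1749 and 879.9 and was not called.

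Genes of the secretory pathway, which carries matrix proteins out of the cell, were called higher in 23 of 29 and lower in 0, with a median of 0.78. The chaperone cofactor *Sdf2l1* (20.5 at D0 and 92 at D15, log2 change 2.15), the matrix-linked transcription factor *Creb3l1* (217 at D0 and 653 at D15, log2 change 1.59) and the translocon subunit *Sec61b* (182 at D0 and 459.6 at D15, log2 change 1.34) were among the higher ones, with calreticulin, *Calr* (3202 at D0 and 5147 at D15, log2 change 0.68).

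Mitochondrial respiration genes were called lower in 22 of 32 and higher in 0, with a median of -0.60. The 3 that fell most, *Cox6a2*, *Cox8b* (284 at D0 and 27.7 at D15, log2 change -3.34) and *Cox7a1* (327 at D0 and 32.6 at D15, log2 change -3.31), are subunits of the heart and muscle type. Muscle genes fell in the same tissue, and the part of muscle in the values of this list was not tested. The ATP synthase subunit *Atp5b* (6662 at D0 and 4911 at D15, log2 change -0.44) fell by less. Glycolysis and hypoxia genes were called higher in 5 and lower in 6 of 24. The glucose carrier *Slc2a1* (581 at D0 and 1202 at D15, log2 change 1.05), the lactate carrier *Slc16a3* (72.2 at D0 and 143 at D15, log2 change 0.99) and *Pgam1* (1014 at D0 and 1456 at D15, log2 change 0.52) were higher, and the muscle phosphofructokinase *Pfkm* (2209.5 at D0 and 562 at D15, log2 change -1.97), *Aldoa* (11789 at D0 and 3763 at D15, log2 change -1.65) and *Bnip3* (594 at D0 and 301 at D15, log2 change -0.98) were lower.

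Circadian clock genes were called lower in 12 of 19 and higher in 0, with a median of -0.58. The output factor *Hlf* (393 at D0 and 99.8 at D15, log2 change -1.98), the repressors *Bhlhe41* (269 at D0 and 99 at D15, log2 change -1.44) and *Ciart* (349 at D0 and 152 at D15, log2 change -1.20) and the nuclear receptor *Rora* (3352 at D0 and 1893 at D15, log2 change -0.82) were lower. The hour at which tissue was taken is not given in the sources used here, and its part in these values was not tested.

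Genes often used as references were not all level. Of 17 such genes 8 were called higher and 3 lower, with a median of 0.26. *Gusb* (226 at D0 and 463 at D15, log2 change 1.04) and *Vcp* (1699.5 at D0 and 2739 at D15, log2 change 0.69) were higher, and *Tfrc* (1994 at D0 and 989 at D15, log2 change -1.01), *Gapdh* (10146 at D0 and 6102 at D15, log2 change -0.73), which muscle expresses strongly, and *B2m* (3264 at D0 and 2513 at D15, log2 change -0.38) were lower. *Tbp*, which the study used as its qPCR reference, stood at 209 at D0 and 198 at D15, a log2 change of -0.08 that was not called.

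The same components were read in the tables that compare D5, D10 and D20 with D0. These comparisons share the D0 samples with that of D15, so only each one's own values are given, with means brought to the scale of the D15 table. At D10 21.0% of named genes were called higher and 11.4% lower, and at D20 12.7% and 14.8%. The median of fibrillar collagens was 0.19, 2.39, 2.22 and 1.66 at D5, D10, D15 and D20, that of metalloproteinases 0.73, 1.51, 1.43 and 1.30, and that of S phase and mitosis 1.68, 0.82, 0.87 and 0.80. The median of adipocyte genes was -1.67, -1.65, -2.28 and -2.80, and that of mature muscle -2.99, -2.54, -2.36 and -3.26. The differences between days were not tested.

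Single genes had these levels on the 4 days after injury. *Mmp13* had means of 523, 843, 387 and 197 at D5, D10, D15 and D20, and *Mmp9* of 1079, 1070.3, 434 and 204, so both were at lower levels at D15 than at D5 or D10 in value. *Col1a1* had means of 4885, 30778, 56589 and 41426 and was highest at D15. *Col26a1* had means of 1.72, 26.4, 144 and 236, and *Prg4* of 233, 701, 270.5 and 50.5. *Myog* had means of 38.6, 112, 90.3 and 26.3. The hair list had medians of -0.31, -0.81, 0.07 and 2.15 and the keratin-associated proteins of 0.26, -1.18, 0.41 and 2.58.

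**Figure D4:**
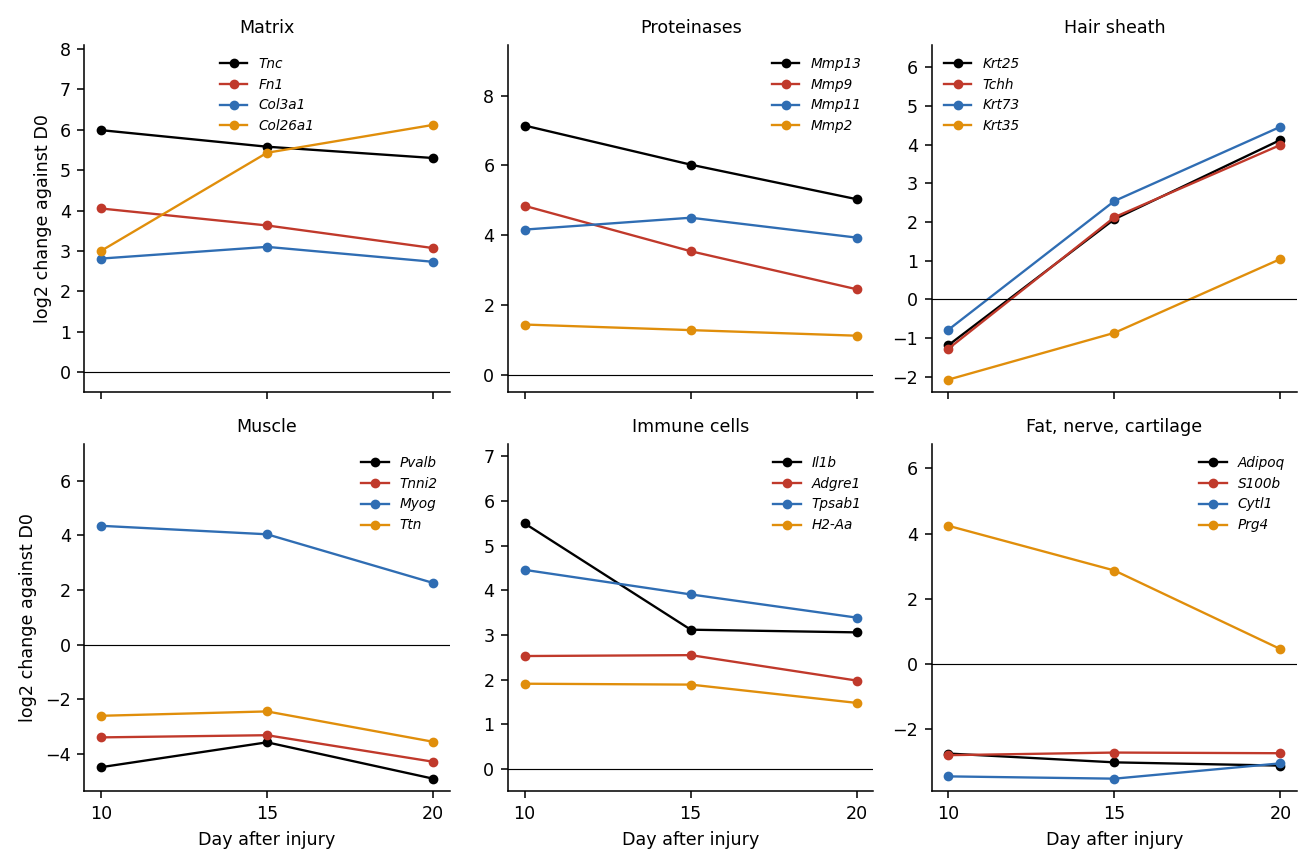
The log2 change against D0 at D10, D15 and D20 is plotted for 24 genes in 6 groups, each point 1 group mean against the D0 mean with no error available. *Krt25* and *Tchh* lie below 0 at D10, where they were not called, and above it at D15, with *Krt25* at -1.19, 2.07 and 4.12, while *Cytl1* stands at -3.44, -3.51 and -3.04.

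For *M. musculus*, the laboratory mouse, which does not close such holes, the D15 table lists genes by number, and 1980 of the named genes could be paired with a number through identifiers in a supplementary table of the study. They are not a representative set of all genes. Over the whole *M. musculus* comparison 13.2% of genes were called higher at D15 and 12.5% lower. Of 547 paired genes called higher in the spiny mouse 325 were called higher in *M. musculus* too (59.4%), which is 63.9% of the 509 called higher there, and 21 were called lower. Over all 1980 pairs 25.7% were called higher in *M. musculus* and 22.3% lower, and of the 1047 not called in the spiny mouse 167 were called higher there and 189 lower. Of 386 called lower in the spiny mouse 232 were called lower in *M. musculus* (60.1%, or 52.5% of the 442 called lower there) and 17 higher. The tables of the species were normalised separately, and no difference between them was tested.

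Matrix genes had these values side by side. The log2 change of *Fn1* was 3.63 in the spiny mouse, and its value in *M. musculus* was 2.16. *Postn* had 0.51 and 2.58, from means of 4595 and 27412 in *M. musculus* and a D0 mean of 54197 in the spiny mouse. Levels of the 2 species are not on 1 scale. Summed D0 means were 16412794 in *A. cahirinus* and 7534537 in *M. musculus*. *Fbn1* had 0.94 and 2.72, *Fbn2* 2.56 and 4.76, and *Col5a1* 3.10 and 3.76. *Col6a3* had 2.24 and 3.23, *Nid2* 1.14 and 2.42, *Hspg2* 2.03 and 1.87, and *Col7a1* 2.67 and 2.32. Among the matrix genes listed so far in this paragraph, *Fn1*, *Hspg2* and *Col7a1* had larger log2 changes in *A. cahirinus*, and the others in *M. musculus*. Not all paired matrix genes are listed. The ligand *Dll1* was called higher in *A. cahirinus* (0.73) and lower in *M. musculus* (-0.84), and the integrin chain *Itgb8* was called lower (-0.81) and higher (0.78). *Loxl4* fell in both (-1.74 and -2.19), as did *Pfkm* (-1.97 and -2.13), and *Sox11* rose in both (2.62 and 3.50).

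Most called components could not be named. Of the 8767 called higher 5098 had no match to any *M. musculus* transcript (58.2%), and of the 7311 called lower 4281 had none (58.6%), against 96.0% of the 642592 components that were not called. Called components without a match held little RNA, 1.40% of all normalised counts at D0 and 4.14% at D15 for those called higher, and 3.62% and 1.84% for those called lower. Of all normalised counts, a single component among the former held 0.202% at D0 and 1.17% at D15. Another among the latter held 1.38% and 0.789%. The longest contig of called components without a match had a median of 1509.5 bases when called higher and 1112 when called lower, against 3304 and 2934 for called components with a match and 377 for uncalled components without one. The median log2 change was 1.70 for those called higher without a match and 0.80 with one. The median mean in the higher group was 53.2 without a match and 467 with one, against 3.10 for all uncalled components. A call depends on level as well as on change, so these contrasts do not separate having a match from level.

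Unnamed components also held large changes. With a mean of at least 100 in the higher group, 1343 components without a match were called higher and 1022 lower. Of these, 238 rose by at least 2 on the log2 scale and 51 fell by at least 2. The shares of components with a match at these limits were not computed, so these counts are not particular to unnamed components. The largest increase was that of a component with a longest contig of 2594 bases, from 3.03 to 223 (6.04). A pair of components, with contigs of 3889 and 2506 bases, rose from 4.90 to 305 (5.86) and from 3.82 to 219 (5.72). A component of 1871 bases rose from 1124 to 12144 (3.43). The largest decrease was from 131 to 11.8 (-3.43), in a component of 1979 bases.

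**Figure D5:**
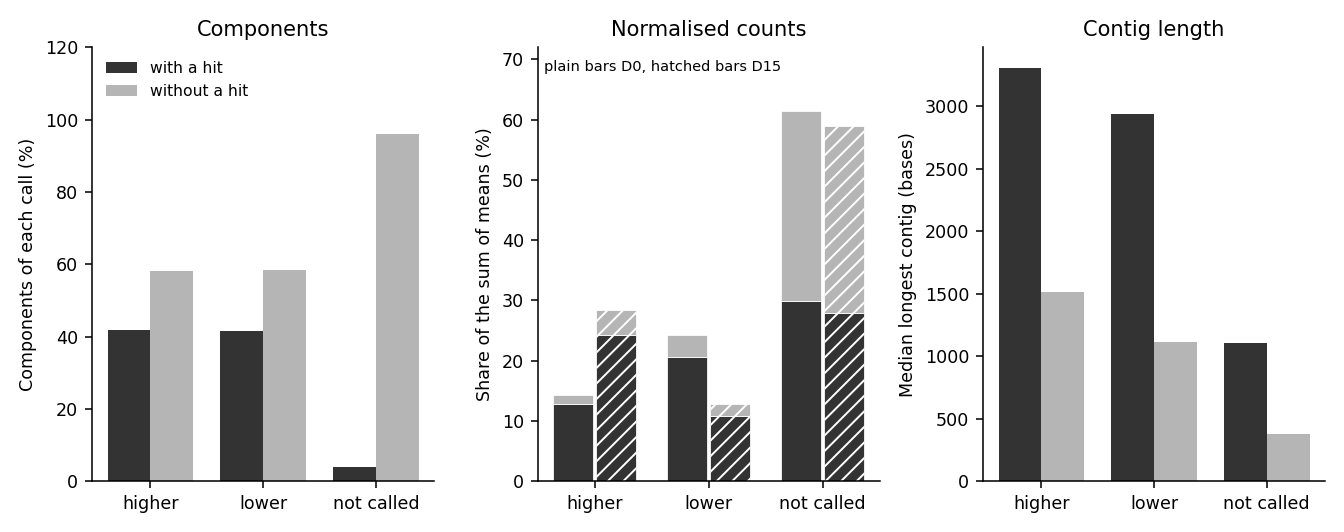
Components called higher, called lower or not called at D15 are split into those with and without a match to a *M. musculus* transcript. Left, their share of each call in percent. Middle, their share of the sum of means in percent at D0 (plain bars) and D15 (hatched bars). Right, the median length of the longest contig in bases. Components without a match make up 58.2% of those called higher and hold 4.14% of the D15 counts.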

How the data were processed

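RNA from ear tissue of *A. cahirinus* was sequenced, and per the study's methods reads were assembled with Trinity, counted with RSEM on Bowtie alignments and compared with EBSeq, whose versions are not printed here. For each day after injury the authors deposited a table of posterior probabilities of differential expression, a score between 0 and 1, and 2 fold changes (the ratio puts D0 over the later day). These are the authors' own comparisons. They were used because the tables hold no other measurement, so no new test was made. The BLASTN file deposited by the authors gives the percent identity, aligned length and bit score of contig matches to *M. musculus* transcripts.

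Group means were solved from the 2 ratios of a row, and the step was checked on simulated data. D5, D10 and D20 means were scaled to the D15 table through the shared D0 group. After scaling, D0 means differed by 0.0034 (D5), 0.00099 (D10) and 0.0018 (D20) on the log2 scale over 140357 components. Log2 changes and folds are those of the posterior ratio, with the sign of its log2 turned. *M. musculus* transcripts received symbols by minimap2 2.31 alignment to GENCODE vM21 (52349 of 61642), and 1787 of 1936 that could be checked carried the same symbol as the study's identifiers. Analysis used Python 3.11.15 and pandas 2.3.3. Library totals are not given in the sources used here. The summed group means were 16412794 at D0 and 17017560 at D15. Replicate animals have no values of their own, so no interval or SD could be given.

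The 51 gene lists and their members were chosen with earlier results of these data known. Genes are named by 1 rule. In each list these are up to 3 members called higher and 3 called lower with the largest log2 change among those with a mean of at least 10, and the member with the highest mean at D0 or D15. Over all genes they are the 12 called higher and the 12 called lower with the largest change among those with a mean of at least 100. The genes the study measured by qPCR were added. *Krt1*, *Krt5*, *Krt14*, *Acta2*, *Flg* and *Flg2* are mentioned outside this rule. There were 11 alternatives to the processing. Some genes that the rule selects are not reported here.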

Additional observations from a re-analysis of the deposited data

How the results depend on the processing

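No value of a single animal was at hand, so leaving out a replicate was not possible, and a difference rests on the authors' posterior probability. No paired analysis was possible because the tables hold no columns for samples. Of the counts recomputed under the alternatives, 59 stayed within 1.5 times the value reported and 7 did not. The other fold change, a pseudocount of 1 and centring on the median gene left the probabilities as they were. Calls could thus hardly change under these, and the 7 counts that each adds to the 59 say little. With a log2 change of at least 1 required, 5604 components were called higher and 4394 lower, 905 genes higher and 733 lower, 1013 genes higher at D10, and 146 paired genes were called in the same direction in both species. With a soft threshold 11176 components were called lower. List medians changed sign for hair (-0.15 with a least mean of 10), for Notch (0.02), myogenic genes (-0.13) and B and plasma cells (0.03) with the component of highest mean, for TGF-beta (-0.02), myogenic genes (-0.14) and B and plasma cells (0.20) with means summed over components, for basal keratins (0.11) without components holding a match of 99% or more, and for B and plasma cells (0.03) with matches of at least 200 bases. *Myh3* changed sign with the component of highest mean (-0.76) and with summed means (-0.11). The cause was not tested. Summed means give no calls. Without components holding a match of 99% or more, 283 of the 294 genes selected by the rule kept their status and 2 lost their call. The others had no remaining component of that name. At a probability of at least 0.99 *Bmpr2*, *Cnn1*, *Hes1*, *Kit*, *Krt17*, *Lat*, *Pf4* and *Tyr* were not called, and *Acan* was called with the soft threshold.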

Other observations

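Of the components called higher, the one with the highest D15 mean has no match to a *M. musculus* transcript. Its longest contig has 693 bases and 76.3% GC, and its mean was 33215 at D0 and 199234 at D15 (log2 change 2.58). In the D10 and D20 comparisons the same component had log2 changes of 2.71 and 2.38. It was not called there, with posterior probabilities of 4.4e-12 and 1.8e-10. Why the calls differ between days was not tested.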
